A study of Mus musculus with 8 samples.

Results

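The genes described are 37 nuclear receptors of the mouse other than the retinoic acid receptors (RAR) and retinoid X receptors (RXR). Each was followed through the ATAC-seq peaks to which the deposited peak table assigns its exact symbol. ATAC-seq uses a transposase that inserts adapters into open DNA, so that tags pile up where chromatin is accessible. Of the 37 genes, 36 had at least 1 peak, and only Hnf4a was listed with none. These 36 were among 21490 genes with a peak in the whole series, and their peaks fell into 232 of 87144 accessible regions. A region here is a set of peaks of any libraries that overlap by at least 1 bp.

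The peaks came from germ cells of neonatal mouse testes, sorted for eGFP from PIWIL2-eGFP mice. In these mice a transgene drives eGFP from the Piwil2 promoter, which is active in germ cells from before birth to early spermatids. All mice were fed WIN 18,446, an inhibitor of retinoic acid (RA) synthesis, for 7 days, which holds spermatogonia undifferentiated. The 0 h mice were collected then, with no injection. The other mice received 1 injection of RA in DMSO and were collected 18, 48 or 120 h post-RA. The 4 timepoints had 2 libraries apiece, made from separate mice, 1 mouse to a library. Later timepoints were also older mice, so that time since RA and age cannot be told apart. The labels give a strain derived from C57BL/6 x 129s4/SvJae and 100000 cells per library, whereas the methods name another cross and another cell number.

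Nuclear receptors are transcription factors that bind DNA through paired zinc fingers, and many are switched on by a small lipid-soluble ligand. The thyroid hormone, vitamin D, peroxisome proliferator-activated, liver X and farnesoid X receptors work as partners of RXR, the protein that also pairs with RAR to read RA. Steroid receptors bind DNA as pairs of their own kind, whereas the orphan receptors have no accepted ligand or act without one. Most members outside the steroid receptors recognise variants of a 6-base half-site. In the testis, Nr6a1 and Nr2c2 are known from germ cells, whereas Nr5a1, Esr1 and Nr2f2 are known mainly from somatic cells.

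The sequence at the summit is shown for 7 of the 10 regions with the largest changes at 120 h post-RA relative to the median region. The other 3, at Nr1h4, at Nr3c1 and over a coding exon of Rora, are given by position only. Each is a window of 200 bases from GRCm38 (mm10), plus strand, around the highest summit of the region. Capitals mark the half-site AGGTCA or a variant of it, whether AGTTCA or the form GGGTCA or the form GGTTCA, on either strand. These are the letters that RAR, RXR and many of their relatives bind. The first 4 windows are from regions whose peaks rose relative to the median region by 120 h post-RA.
Thra, 2031 bp from the gene start, chr11:98743805-98744004: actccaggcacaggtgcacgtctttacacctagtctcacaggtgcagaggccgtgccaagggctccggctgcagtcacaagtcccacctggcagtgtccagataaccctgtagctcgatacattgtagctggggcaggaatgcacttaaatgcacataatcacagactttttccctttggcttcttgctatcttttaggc
Nr3c2, -428 bp from the gene start, chr8:76901981-76902180: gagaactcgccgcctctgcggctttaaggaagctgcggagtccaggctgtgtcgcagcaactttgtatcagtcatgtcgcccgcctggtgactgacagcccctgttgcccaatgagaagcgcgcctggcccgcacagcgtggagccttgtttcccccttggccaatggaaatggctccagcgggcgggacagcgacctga
Nr2f2, 4986 bp from the gene start, chr7:70361661-70361860: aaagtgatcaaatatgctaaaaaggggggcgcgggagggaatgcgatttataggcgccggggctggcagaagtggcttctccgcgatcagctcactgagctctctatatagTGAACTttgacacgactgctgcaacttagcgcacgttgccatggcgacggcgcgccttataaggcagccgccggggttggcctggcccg
Rora, 690294 bp from the gene start, chr9:69343997-69344196: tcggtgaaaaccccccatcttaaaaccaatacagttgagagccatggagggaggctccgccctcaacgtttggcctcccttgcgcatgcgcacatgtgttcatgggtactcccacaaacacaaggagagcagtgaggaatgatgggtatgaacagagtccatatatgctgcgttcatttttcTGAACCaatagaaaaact
The other 3 windows are from regions whose peaks fell by 120 h post-RA.
Rora, 530326 bp from the gene start, chr9:69184029-69184228: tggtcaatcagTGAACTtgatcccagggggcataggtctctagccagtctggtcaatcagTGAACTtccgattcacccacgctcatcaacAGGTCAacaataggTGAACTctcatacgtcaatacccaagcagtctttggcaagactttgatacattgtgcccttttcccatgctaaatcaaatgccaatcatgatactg
Esr1, 105010 bp from the gene start, chr10:4716957-4717156: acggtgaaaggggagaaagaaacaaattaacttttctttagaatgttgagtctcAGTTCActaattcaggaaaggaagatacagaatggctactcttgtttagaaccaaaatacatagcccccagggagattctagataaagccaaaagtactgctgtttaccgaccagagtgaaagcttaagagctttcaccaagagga
Nr3c2, 195796 bp from the gene start, chr8:77098205-77098404: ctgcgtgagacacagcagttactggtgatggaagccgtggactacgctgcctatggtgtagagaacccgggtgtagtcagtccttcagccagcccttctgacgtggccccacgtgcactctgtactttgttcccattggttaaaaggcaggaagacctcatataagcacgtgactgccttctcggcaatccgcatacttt
All 7 summits are annotated as intron, that 428 bp upstream of Nr3c2 as an intron of another transcript. The Thra window and both Nr3c2 windows held no half-site, whereas the Rora window at 530326 bp held 4. Among all 232 regions, 76 (32.8%) had at least 1 of these half-sites in the window, against 32.5% of the 87144 regions. The half-site AGGTCA alone, which is one of the 4, was in 25 member regions (10.8%) and in 10.6% of all regions. The palindrome that steroid receptors other than the estrogen receptors bind and the retinoic acid response elements DR2 and DR5, searched on both strands, were in none of the 232 windows, and in 0.3% of all windows each. The extended half-site TCAAGGTCA, which contains AGGTCA, was in 1 member window (0.4%) and in 0.4% of all windows. Over all 232 windows the members were close to the series as a whole. Among the 44 member regions with a peak in all 8 libraries, AGGTCA was in 8 (18.2%), against 8.0% of all 15536 such regions, and any of the 4 half-sites was in 17 (38.6%), against 26.1%. These shares were not tested. The median GC content of a window was 54.0% for the members and 52.5% for all regions.

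The 8 libraries differed in the number of peaks. Both 0 h libraries had 69089 and 72215 peaks, whereas the 6 later libraries had between 24643 (120 h replicate 2) and 39551 (120 h replicate 1). The lowest summit signal of a called peak was 24 or 25 in each library, and the table holds no signal for a region without a peak. The number of tags behind a peak was not analysed here, and the height of a peak is known only as the tag coverage at its summit, after the authors reduced all libraries to an equal number of tags. In sorted cells, a smaller share of cells with open chromatin and a lesser opening in each cell cannot be told apart. The 10 germ cell markers, such as Ddx4, Dazl and Sall4, all had peaks in both libraries of all 4 timepoints. So did 72.8% of all genes with peaks in both libraries of any timepoint. These markers had 46 to 49 peaks in a 0 h library and 19 to 31 in a later one. With 2 libraries per timepoint, p-values rest on the spread between pairs of mice.

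Most nuclear receptor genes kept at least 1 accessible region throughout. A timepoint counted for a gene where its symbol was on a peak in both libraries, and 29 of the 36 members were counted at all 4 timepoints. Over all genes counted at any timepoint, the share was 72.8%. Hnf4g and Nr5a1 were counted at 0 h only, a pattern found in 12.9% of all counted genes. Esr2 and Vdr were counted at 0, 18 and 48 h, Rorb at 0, 18 and 120 h, Nr2e3 at 0, 48 and 120 h, and Nr2e1 at 0 and 120 h. The members together had 194 and 188 peaks in the 0 h libraries and between 75 and 129 in the later libraries, counting a peak once for each member it was assigned to.

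For 16 of the 36 members, both 0 h libraries had more peaks than each of the 6 later libraries. This held for 36.9% of all 21490 genes with a peak. An exact permutation test of 2 libraries against 6 (two-sided) cannot go below 0.0714, so that no single gene could pass 0.05. The libraries also differed in their total number of peaks. When the same number of highest peaks, 24643, was taken from each library, 1 of the 35 members that still had a peak met this criterion (2.86%), against 2.53% of 18750 genes. The members then had 66 to 70 peaks in a 0 h library and 63 to 78 in a later one. Equal numbers remove an excess shared by all genes by design, so they only set the members beside the other genes. What the excess at 0 h came from was not tested.

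**Figure D1:**
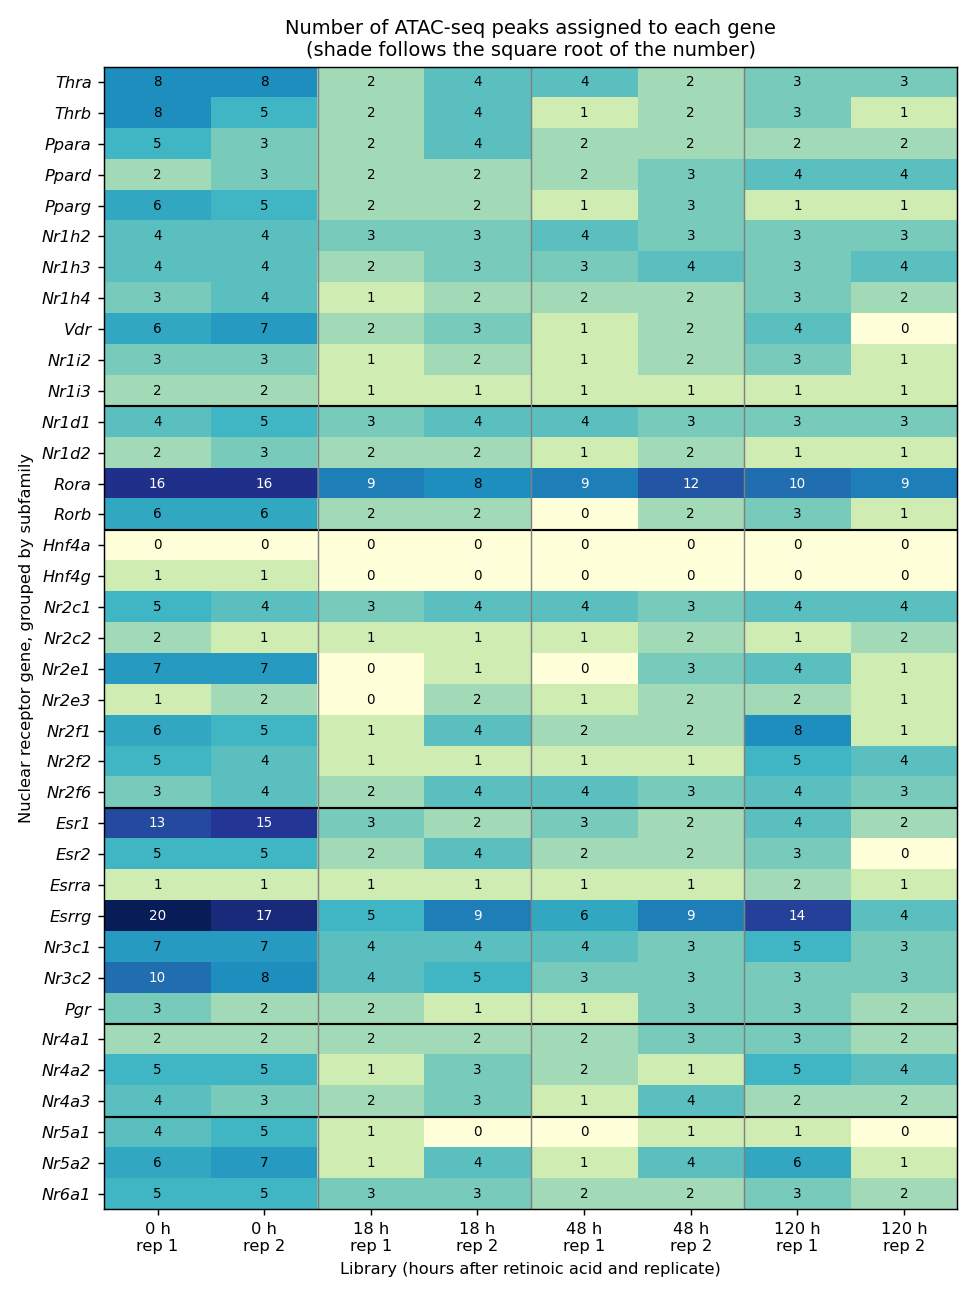
Number of ATAC-seq peaks assigned to each of the 37 nuclear receptor genes (rows, grouped by subfamily between the black lines) in each of the 8 libraries (columns), with the number in each cell and darker shades for more peaks. Esr1, Esrrg and Rora had 13 to 20 peaks in the 0 h libraries, Hnf4a had none in any library, and Ppard had its most peaks, 4, in both 120 h libraries.

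The largest difference in peak number was at Esr1, the estrogen receptor alpha gene. It had 13 and 15 peaks before RA, 3 and 2 after 18 h, 3 and 2 after 48 h, and 4 and 2 after 120 h. Esrrg, an orphan receptor related to the estrogen receptors, had 20 and 17 peaks at 0 h, then 5 and 9, 6 and 9, and 14 and 4. All later libraries of both genes were below both 0 h libraries, but for Esrrg the 120 h replicates lay far apart. Esr2, the estrogen receptor beta gene, had 5 and 5 peaks at 0 h and between 0 and 4 later.

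Rora, an orphan receptor that acts on clock and lipid genes, had 16 and 16 peaks at 0 h, then 9 and 8, 9 and 12, and 10 and 9. Nr3c2, the mineralocorticoid receptor gene, had 10 and 8 peaks at 0 h, then 4 and 5, 3 and 3, and 3 and 3. Nr2e1, an orphan receptor of neural stem cells, had 7 and 7 peaks at 0 h, then 0 and 1, 0 and 3, and 4 and 1. These 5 genes, Esr1, Esrrg, Rora, Nr2e1 and Nr3c2, had the largest difference between the mean at 0 h and the mean of the later libraries, from 5.5 peaks at Nr2e1 and Nr3c2 to 11.3 at Esr1. Esrrg (606.1 kb) and Rora (734.5 kb) are the longest of them, and per 100 kb of gene with its flanks Rora had 2.12 peaks at 0 h and 1.26 later, whereas Nr2e1 had 16.8 and 3.6.

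By subfamily, the 7 steroid and estrogen-related receptors had 59 and 55 peaks at 0 h and 15 to 34 later. Of these, 5 of 7 genes had more peaks in both 0 h libraries than in each later one. Over all genes with a peak, 36.9% were so ordered, and with equal peak numbers 1 member was. The subfamilies were not tested against each other. The 11 hormone and lipid receptors of the NR1 group had 51 and 48 peaks at 0 h and 20 to 30 later, with 5 of 11 such genes. These were Thra and Thrb (thyroid hormone receptors), Pparg (the fat cell receptor), Vdr (the vitamin D receptor) and Nr1i3 (a xenobiotic receptor). The 3 immediate-early receptors Nr4a1, Nr4a2 and Nr4a3 had 11 and 10 peaks at 0 h and 5 to 10 later, with none of the 3 genes so ordered. The 9 NR2 receptors reached 28 peaks in 120 h replicate 1, as many as in 0 h replicate 2, but had 16 in 120 h replicate 2.

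Nr5a1 and Hnf4g were the members counted at 0 h only. Nr5a1, the regulator of steroid synthesis in Leydig and Sertoli cells, had 4 and 5 peaks before RA, 1 and 0 after 18 h, 0 and 1 after 48 h, and 1 and 0 after 120 h. Its highest region, downstream of the gene at a CpG island (chr2:38688689-38689637), had a summit signal of 102 and 133 at 0 h, 44 in 18 h replicate 1, 50 in 48 h replicate 2 and 47 in 120 h replicate 1. The other 3 later libraries had no peak there, so the 0 h values were both above all later ones. Over coding exons of Nr5a1, a region 4046 bp from the start had 79 and 113 in the 0 h libraries and one at 6478 bp had 74 and 83, and neither had a later peak. Hnf4g, a relative of the hepatocyte nuclear factor Hnf4a, had 1 region in all, 158 bp upstream of its start, with 46 and 49 in the 0 h libraries alone.

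Vdr and Esr2 had no peak of any kind in 120 h replicate 2. The highest Vdr region, 2296 bp upstream, had 286 and 198 before RA, 67 and 106 after 18 h, 70 and 71 after 48 h, 56 in 120 h replicate 1 and no peak in 120 h replicate 2. The Esr2 region 53259 bp inside the gene had 202 and 120 before RA, 50 to 55 in the libraries of 18 and 48 h, 81 in 120 h replicate 1 and again none in replicate 2, the library with the fewest peaks.

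Markers of other testis cells also had fewer peaks in the later libraries. The 9 Sertoli cell markers had 37 to 41 peaks in a 0 h library and 10 to 20 in a later one. Of the 9, 5 were counted at all 4 timepoints, against 72.8% of all counted genes. The 6 Leydig cell markers had 4 to 6 peaks and then 0 to 3, with none at all 4 timepoints and Hsd3b1 without a peak in any library. The 5 peritubular myoid markers had 19 to 21 and then 5 to 10, the 5 endothelial markers 15 to 17 and then 3 to 10, and the 5 macrophage markers 8 to 9 and then 3 to 6, with Adgre1 at 0 throughout. The part of such cells in the peaks of Nr5a1 and the other members was not tested. The germ cell markers had fewer later peaks as well, as given above.

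The 232 member regions followed the series in when they were accessible. Of the 167 counted at any timepoint, 78 (46.7%) were counted at 0 h only, against 49.8% of all counted regions. Another 44 (26.3%) were counted at all 4 timepoints, against 25.3%. No timepoint had both libraries with a peak in the remaining 65. Of the 78 regions at 0 h only, the later libraries lacked a peak in 44, while 20 had one in 1 later library, 8 in 2 and 6 in 3. Their median summit signal was 67.0 and 65.0 in the 0 h libraries, against 208.5 and 269.0 in the regions of all 4 timepoints. Over the series the same medians were 60.0 and 62.0, against 224.0 and 270.0. A region of all 4 timepoints needs a called peak in all 8 libraries, so that this comparison depends on peak calling.

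More of the member regions lay at a CpG island, a stretch rich in CG often found at gene starts. This was so for 30.6% of the 232, against 18.1% of all regions and 25.4% of the 59392 regions to which the table assigns a gene. Among regions at 0 h only the shares were 26.9% for the members, 8.2% for all and 12.4% for regions with a gene. Among those of all 8 libraries they were 56.8%, 58.6% and 66.0%. Regions of 1 gene share its sequence surroundings and are not independent, and no test was made of these shares. Members with a peak within 1000 bp of their own start in all 8 libraries included Nr1d1, Nr1d2, Nr2c2, Nr3c2, Nr6a1, Esrra, Thrb and Ppard. The share of all genes with such a peak was not determined.

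Accessible regions at 120 h only were few. They were 7 of the 167 (4.2%), against 2.49% of all counted regions. Ppard, the widely expressed peroxisome proliferator-activated receptor, held 2 of them. The one 75630 bp from its start (chr17:28308118-28308540) had a summit signal of 122 and 85 at 120 h and no peak in any of the 6 earlier libraries. The one 6642 bp upstream (chr17:28225983-28226329) had 91 and 85 at 120 h, but also 105 in 0 h replicate 2.

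The region 2554 bp upstream of Rora (chr9:68650815-68651418) had 100 and 64 at 120 h and 77 in 0 h replicate 1. The region 15738 bp from the start of Nr2f2 had 42 and 46 at 120 h and 69 in 0 h replicate 2. These 3 regions with a peak in 1 of the 0 h libraries were therefore not new at 120 h. The regions at Nr4a2 (40 and 39), Nr5a2 (35 and 41) and Pgr (47 and 63) had no peak in an earlier library. Pgr encodes the progesterone receptor, and Nr5a2 a relative of Nr5a1 known from liver, ovary and early embryo.

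Heights could be compared in the 44 member regions with a peak in all 8 libraries, which belong to 26 members. Of these regions, 12 lay within 1000 bp of the start of a member and 13 within 1000 bp of the start of another gene. The fit used all 15536 such regions of the series (limma, Benjamini-Hochberg adjustment, threshold 0.05). In counts of regions from the fits, lower and higher mean past this threshold. At 18 h, 39 of the 44 were lower than at 0 h and 0 higher, against 92.3% and 0.296% of all regions. The median log2 change was -1.26 for the members and -1.23 for all. Without 0 h replicate 2, or without 18 h replicate 1, 25 were lower. The fall of the members at 18 h was thus that of the series. On simulated heights for 18 h minus 0 h in which only 200 of the 15536 regions changed, the fit recovered 0% of those changed by a log2 of 1, 75.5% at 2 and 98% at 3. These shares are not a limit for the deposited heights, where most regions moved and the smallest member change that passed at 18 h was -0.84, in a region downstream of Nr4a1.

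Between 18 and 48 h, 0 of the 44 passed in either direction by limma, adjusted or at an unadjusted p under 0.05, and 0.00644% of all regions were lower and 0% higher. From 48 to 120 h, 13 were higher and 0 lower, against 23.7% and 0.18% of all regions. These 13 became 22 without 120 h replicate 2, 3 without 120 h replicate 1, 0 without 48 h replicate 1 and 2 without 48 h replicate 2, and 1 was lower without 120 h replicate 1. At 120 h, 16 were lower than at 0 h past the threshold and 1 was higher, against 44.8% and 0.882%. A log2 change below 0 was found in 39 and one above 0 in 5, against 14198 and 1338 of all 15536 regions. Without 120 h replicate 1, 26 were lower, and without 120 h replicate 2, 2 were higher. The comparisons of 18 h and of 120 h with 0 h share the 0 h libraries.

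Heights as deposited thus include a level shared by the regions of a library, which differed between timepoints. A difference between libraries and a change in accessibility of most regions cannot be told apart here. The median height of a library over the 15536 regions was 7.81 and 8.08 (log2) at 0 h, 6.43 to 6.86 at 18 and 48 h, and 7.38 and 6.73 at 120 h. To compare a region with the rest, each library was also centred on its median, which gives changes relative to the median region. On this scale 12 of the 44 were higher and 10 lower at 120 h than at 0 h, against 23% and 15.8% of all regions, and the median change was 0.24 against 0.14. The direction thus depended on the scale, with 39 of 44 values below 0 as deposited and 28 of 44 above 0 relative to the median region. The 12 became 5 without 0 h replicate 1 or without 120 h replicate 2, and the 10 became 6 without 120 h replicate 1 and 4 without 120 h replicate 2. Against 48 h, 7 were higher and 3 lower at 120 h on this scale, where 9.47% and 7.45% of all regions were.

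The regions were also divided by their distance to the start of any gene, a member or a neighbour, and the difference between the classes was not tested. Of the 23 member regions within 1000 bp of a gene start, 7 were higher and 2 lower relative to the median region at 120 h, with a median of 0.29. Of the 21 farther away, 5 were higher and 8 lower, with a median of -0.12. Over the series the medians were 0.32 in 8971 regions near a start and -0.18 in the 6565 others. When each library was instead centred on the median of its own class of regions, a choice made after seeing the data, 8 member regions were higher and 9 lower, against 15.9% and 15.5% of all regions. Against 48 h these were 5 and 3, with 5.41% and 7.52% of all regions.

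**Figure D2:**
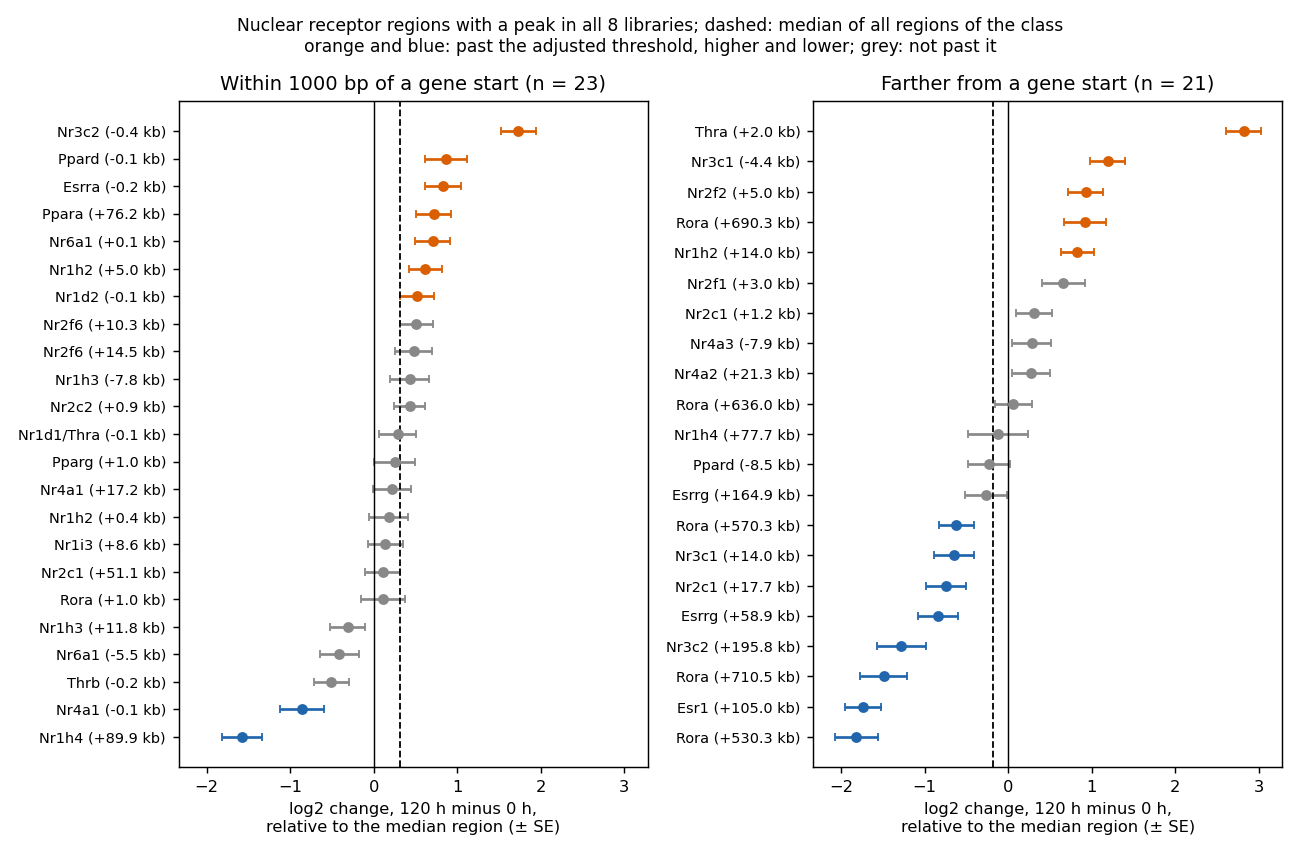
Log2 change in peak height from 0 h to 120 h post-RA, relative to the median region (x axis, with the SE of the limma fit as bars), for the 44 nuclear receptor regions with a peak in all 8 libraries (y axis, gene and distance from its start), split by whether the region lies within 1000 bp of the start of any gene. Orange and blue points passed the adjusted threshold, the dashed line is the median of all regions of the class (0.32 and -0.18), and the Thra region at 2.82 stands beyond all others.

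The clearest rise was in an intron of Thra, the thyroid hormone receptor alpha gene, 2031 bp inside its start (chr11:98743647-98744562). Its summit signal was 117 and 114 before RA, 136 and 136 after 18 h, 186 and 198 after 48 h, and 542 and 357 after 120 h. Both libraries of each timepoint lay above both of the one before. At 120 h the log2 change from 0 h was 1.93 (SE 0.37, adjusted p = 3.42e-06, limma) as deposited, and 2.82 (SE 0.21, adjusted p = 1.65e-05) relative to the median region. As deposited, 5 member regions had a log2 change above 0 at 120 h, and this was the only one of them past the threshold.

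This region was also the only one of the 44 past the threshold at 18 h relative to the median region, where 1.25% of all regions were higher and 0.225% lower. Its log2 change there was 1.5 (SE 0.21, adjusted p = 0.00197, limma), and 0.24 (SE 0.37, adjusted p = 0.531) as deposited. Without 18 h replicate 1 it no longer passed (adjusted p = 0.0578). At the annotated start of Thra itself, within 1000 bp, a peak was present in the 0 h libraries only. In number of peaks Thra had 8 and 8 at 0 h, then 2 and 4, 4 and 2, and 3 and 3, so that it had fewer peaks in the libraries where this region was higher. Thra meets Nr1d1, a clock receptor on the other strand, at its 3' end, and some regions were assigned to both genes. A shared region 30991 bp from the Thra start had 110 in 0 h replicate 2, no peak in 0 h replicate 1, and 79 to 137 in the 6 later libraries. The height in 0 h replicate 2 thus lay within the later range, and that in 0 h replicate 1 is not known.

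The start of Nr3c2 showed the next largest rise (chr8:76901714-76902606, at a CpG island 428 bp upstream). Its signal was 205 and 264 before RA, 144 and 167 after 18 h, 124 and 168 after 48 h, and 454 and 384 after 120 h. The 120 h libraries were above all the others. The log2 change from 0 h to 120 h was 0.84 (SE 0.37, adjusted p = 0.0506, limma) as deposited and 1.73 (SE 0.21, adjusted p = 0.000145) relative to the median region. At 18 h it was 0.67 (SE 0.21, adjusted p = 0.156) relative to the median region.

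Deep inside the same gene the signal went the other way. The region 195796 bp from the start (chr8:77098068-77098540) had 215 and 297 before RA, 76 and 68 after 18 h, 51 and 82 after 48 h, and 95 and 33 after 120 h. Its log2 change at 120 h was -2.17 (SE 0.37, adjusted p = 1.62e-07, limma) as deposited and -1.28 (SE 0.29, adjusted p = 0.00491) relative to the median region. Without 120 h replicate 2, the library with the fewest peaks, the latter was -0.84 (adjusted p = 0.0602).

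Since both regions are in the same library, their ratio needs no scaling between libraries. It still carries any shift over the series between regions near a gene start and the others. From 0 h to 120 h, the median log2 change relative to the median region was 0.32 near a start and -0.18 in the others. The signal at the start of Nr3c2 was 0.95 and 0.89 times that inside the gene before RA, 1.89 and 2.46 after 18 h, 2.43 and 2.05 after 48 h, and 4.78 and 11.6 after 120 h. All later ratios were above both 0 h ratios. An exact permutation test of 2 libraries against 2 cannot go below 0.333, and gave that value.

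Nr3c1, the glucocorticoid receptor gene on chromosome 18, had a like pair. Its region 4371 bp upstream of the annotated start, at a CpG island, had 185 and 233 before RA, 77 and 98 after 18 h, 89 and 84 after 48 h, and 284 and 230 after 120 h. The ratio to the region 13965 bp inside the gene was 0.74 and 1.29 before RA, 1.12 and 1.24 after 18 h, 1.35 and 1.09 after 48 h, and 2.99 and 4.11 after 120 h, so that only the 120 h ratios stood above the rest. For Nr2c1, an orphan receptor known as TR2, the ratio of its start region to the one 17669 bp inside was 1.12 and 0.94 at 0 h and 1.5 to 2.75 later, with no order among the later timepoints. For Rora, the region 966 bp inside its start, also the start of another gene, was set against 5 regions farther inside. Its ratio at 120 h was above both 0 h ratios for 3 of them, such as 0.57 and 0.49 at 0 h against 1.61 and 2.52 for the region at 530326 bp. It was below both for the region at 690294 bp (2.29 and 1.52 against 1.35 and 0.83), and the pairs overlapped for the one at 636022 bp (2.38 and 2.2 against 2.64 and 2.12). A higher ratio at 120 h was thus not found in all pairs. The upstream Nr3c1 region changed from 0 h to 120 h by a log2 of 1.19 (SE 0.21, adjusted p = 0.00142, limma) relative to the median region and by 0.30 (SE 0.37, adjusted p = 0.524) as deposited.

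**Figure D3:**
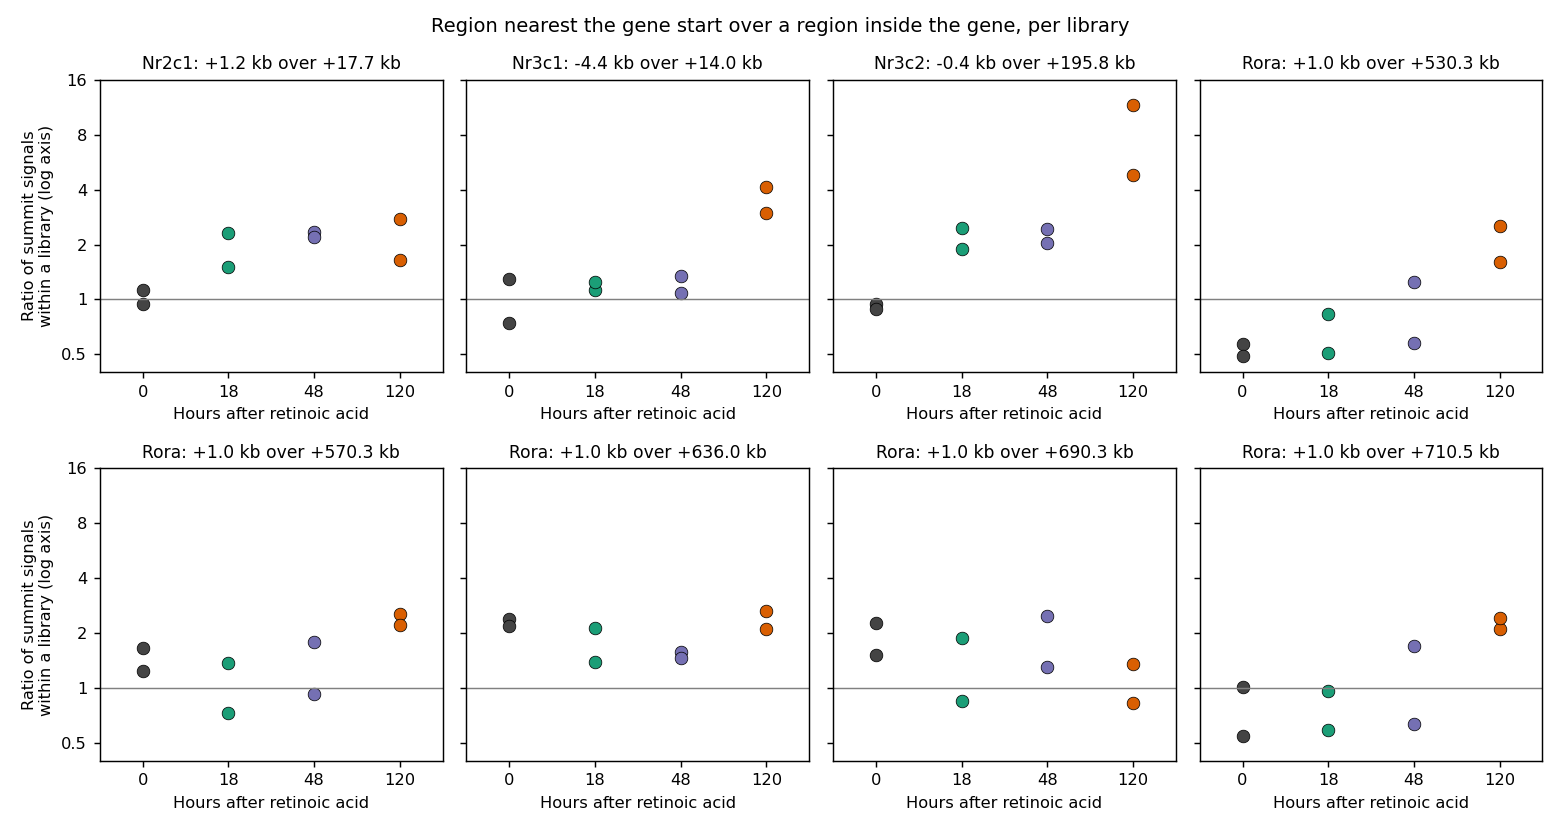
Ratio of the summit signal in the region nearest the gene start to that in a region inside the gene, in each library (y axis, log scale), by hours after RA (x axis), for the 4 members that had both regions in all 8 libraries (8 pairs, of which 5 are of Rora). The Nr3c2 ratios were 0.89 and 0.95 before RA and 4.78 and 11.6 after 120 h, for Nr3c1 only the 120 h ratios (2.99 and 4.11) were above the others, and the Rora ratios went either way.

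Rora held regions that fell and, relative to the median region, one that rose. Its intronic region 530326 bp from the start (chr9:69183874-69184530) had 428 and 474 before RA, 104 and 129 after 18 h, 70 and 118 after 48 h, and 113 and 42 after 120 h. All later libraries were below both 0 h libraries. The log2 change at 120 h was -2.71 (SE 0.37, adjusted p = 7.47e-11, limma) as deposited and -1.82 (SE 0.26, adjusted p = 0.000444) relative to the median region, the largest fall among the 44. At 18 h it was -1.96 (adjusted p = 9.13e-06) as deposited and -0.70 (SE 0.26, adjusted p = 0.248) relative to the median region.

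A region over a coding exon of Rora, 710502 bp from the start (chr9:69364057-69364643), had 240 and 426 at 0 h and 44 to 111 later. Its log2 change at 120 h relative to the median region was -1.49 (SE 0.28, adjusted p = 0.00188, limma). Between these, the intronic region at 690294 bp (chr9:69343858-69344647) had 107 and 153 before RA, 62 and 57 after 18 h, 35 and 53 after 48 h, and 135 and 127 after 120 h, back within the range of the 0 h values. It rose relative to the median region by a log2 of 0.92 (SE 0.25, adjusted p = 0.012), and no longer passed without 0 h replicate 1 or without 120 h replicate 2 (adjusted p up to 0.121). Regions of 1 gene thus moved in both directions.

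Esr1 kept 1 region in all 8 libraries, in an intron 105010 bp from its start (chr10:4716808-4717345). It had 349 and 303 before RA, 115 and 135 after 18 h, 91 and 106 after 48 h, and 75 and 37 after 120 h. Each timepoint lay below the one before, and the log2 change at 120 h was -2.63 (SE 0.37, adjusted p = 2.78e-10, limma) as deposited and -1.74 (SE 0.22, adjusted p = 0.000212) relative to the median region. Of the 16 regions assigned to Esr1, 9 were counted at 0 h only. Over the series this held for 30507 of 87144 regions, or 49.8% of those counted at any timepoint. The difference was not tested. Nr1h4, the bile acid receptor gene, had a fall of -1.58 (SE 0.24, adjusted p = 0.000611, limma) on that scale in a region downstream of it (382 and 369 at 0 h, 96 and 48 at 120 h). That region lies at the start of another gene, Gas2l3.

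Among the members known from germ cells or testis, the start of Nr6a1, the germ cell nuclear factor gene, had 288 and 448 before RA, 152 and 199 after 18 h, 153 and 175 after 48 h, and 370 and 273 after 120 h. The 120 h values lay between or near the 0 h values. The log2 change at 120 h was -0.18 (SE 0.37, adjusted p = 0.718, limma) as deposited and 0.71 (SE 0.21, adjusted p = 0.0163) relative to the median region, which did not pass without 0 h replicate 1 or without 120 h replicate 2 (adjusted p up to 0.137) or when centred by class of region (0.44, adjusted p = 0.0819). Nr6a1 had 5 and 5 peaks at 0 h and 2 or 3 in each later library.

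The start of Nr2c2, the orphan receptor TR4, was among the highest of the members, with 654 and 824 before RA, 270 and 344 after 18 h, 283 and 320 after 48 h, and 654 and 437 after 120 h. Its log2 change at 120 h was 0.43 (SE 0.19, adjusted p = 0.0853, limma) relative to the median region. The highest region assigned to Nr2c1 lies at the start of its neighbour Ndufa12, and had 196 and 220 before RA, 71 and 95 after 18 h, 76 and 91 after 48 h, and 128 and 114 after 120 h. Its change was 0.11 (SE 0.21, adjusted p = 0.703). Neither passed the threshold.

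Nr2f2, the orphan receptor COUP-TFII of interstitial cells, had a region 4986 bp inside the gene (chr7:70361373-70362288) with 192 and 230 before RA, 78 and 89 after 18 h, 89 and 89 after 48 h, and 233 and 200 after 120 h. The signal at 120 h was thus level with that at 0 h. The log2 change was 0.04 (SE 0.37, adjusted p = 0.941, limma) as deposited and 0.93 (SE 0.21, adjusted p = 0.00571) relative to the median region, which did not pass without 120 h replicate 2 (adjusted p = 0.0582). In number Nr2f2 had 5 and 4 peaks at 0 h, 1 in each library of 18 and 48 h, and 5 and 4 at 120 h. The Sertoli cell marker Amhr2, named after its values were seen, had the same course, with 5 and 4 peaks before RA, 1 to 3 in each library of 18 and 48 h, and 4 and 5 after 120 h. The 9 Sertoli cell markers together did not return to the 0 h number. They had 37 and 41 peaks before RA, and 20 and 13 after 120 h. Nr4a2, an immediate-early receptor, had the course of Nr2f2 in number (5 and 5, then 1 and 3, 2 and 1, 5 and 4). Its region 21283 bp from the start had 75 and 105 at 0 h and 62 and 54 at 18 h, a log2 change of 0.64 (SE 0.23, adjusted p = 0.216, limma) relative to the median region.

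Of the other regions past the threshold relative to the median region at 120 h, the start of Esrra, an estrogen-related receptor of energy metabolism, had 682 and 1129 before RA, 357 and 439 after 18 h, 302 and 458 after 48 h, and 967 and 730 after 120 h. It was 0.83 higher on the log2 scale (adjusted p = 0.0123, limma). The start of Ppard, with 276 and 471 before RA, 105 and 187 after 18 h, 131 and 170 after 48 h, and 374 and 338 after 120 h, was 0.87 higher (adjusted p = 0.0164). In both, the 120 h values lay within the 0 h pair. The start of the clock receptor Nr1d2 (0.52) and a region downstream of Nr1h2, a liver X receptor (0.83), were higher too. The start of Nr4a1 (-0.86), an intron of Esrrg 58930 bp inside (-0.84) and the regions inside Nr2c1 (-0.74) and Nr3c1 (-0.65) used for the ratios were lower. These regions lie outside the 10 largest changes and were named after their values were seen.

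**Figure D4:**
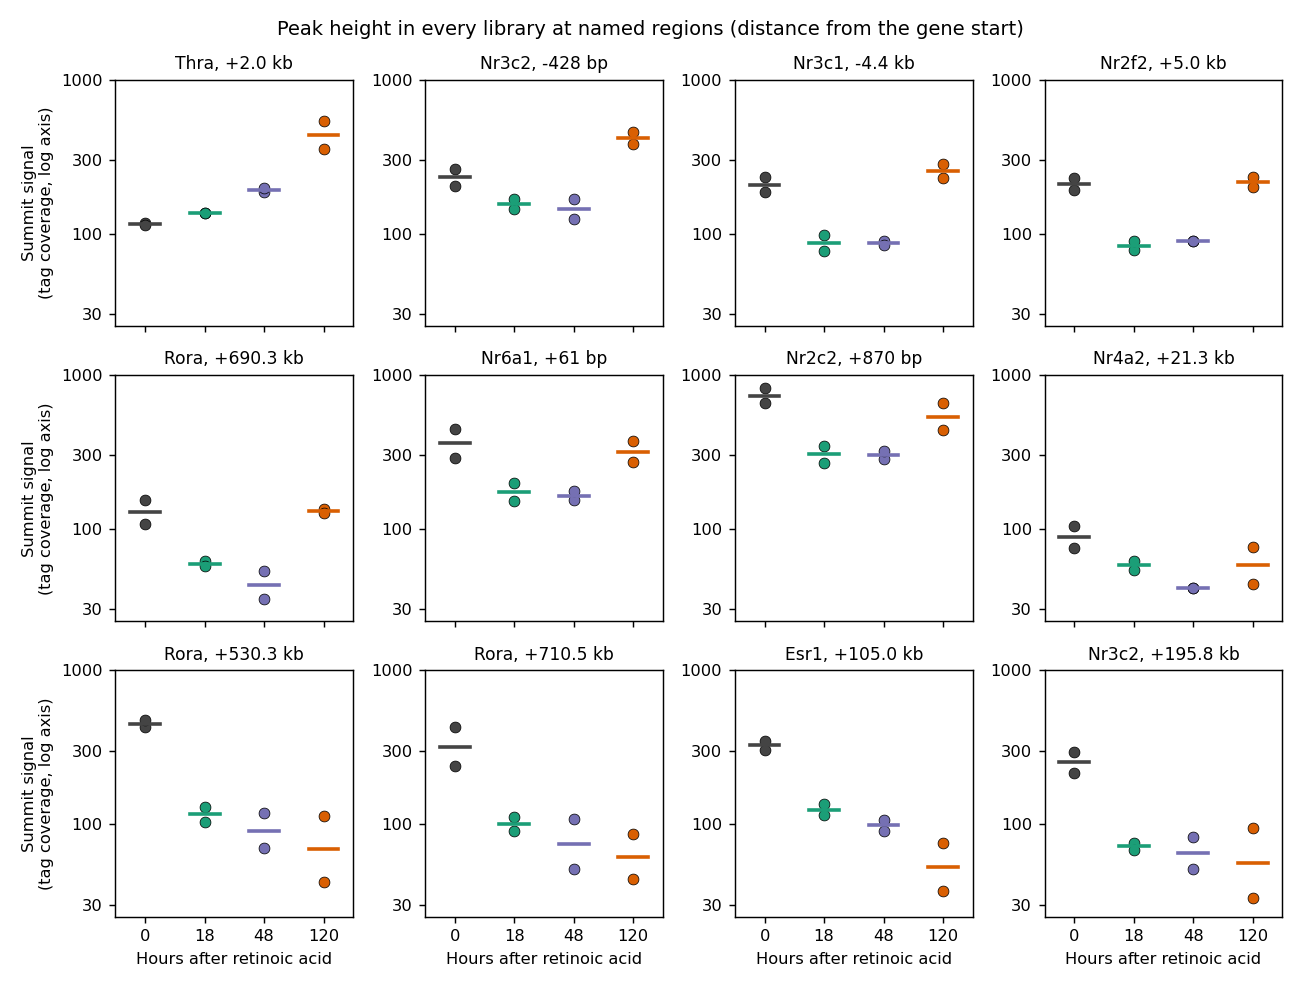
Summit signal (tag coverage, log axis) of 12 nuclear receptor regions in every library, by hours after RA (x axis), with 1 point per library and a bar at the geometric mean of each pair. The Thra region rose at each timepoint, the Nr3c2 start was highest at 120 h, and the 4 regions in the bottom row were at 215 to 474 before RA and at 33 to 113 after 120 h.

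The partners and cofactors of these receptors were compared as lists. The 6 RAR and RXR genes had 32 to 35 peaks in a 0 h library and 13 to 19 in a later one. Of the 6, 4 were counted at all 4 timepoints, against 72.8% of all counted genes. Of their 10 regions with a peak in all 8 libraries, 8 had fallen by 18 h as deposited, against 92.3% of all regions. After 120 h, 6 were below 0 h, against 44.8%. Relative to the median region 2 were higher and 1 lower at 120 h, against 23% and 15.8% of all regions. The start of Rxrb, 68 bp upstream, changed by a log2 of 1.12 (SE 0.20, adjusted p = 0.00168, limma) on that scale, the start of Rarb, 470 bp upstream, by -0.92 (adjusted p = 0.00747), and the region of Rara 26272 bp inside by 0.99 (adjusted p = 0.0112).

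The 20 coregulator genes, which encode coactivators and corepressors that nuclear receptors recruit, were the other list. Of these genes 18 were counted at all 4 timepoints, against 72.8% of all counted genes. They had 93 to 94 peaks in a 0 h library and 46 to 72 in a later one. Of 31 regions, 27 were lower past the threshold at 18 h as deposited, against 92.3% of all regions. At 120 h, 5 were lower than at 0 h past the threshold, against 44.8%. A log2 change below 0 was found in 26, against 14198 of all 15536 regions. Relative to the median region 13 were higher and 1 lower at 120 h, against 23% and 15.8% of all regions. The median was 0.51, against 0.14 for all regions. Centred by class of region, 8 were higher and 1 lower, against 15.9% and 15.5%. Both the start of Med1, the Mediator subunit that binds receptors, and a region 9491 bp upstream of it changed by a log2 of 1.23 (adjusted p = 0.00243 and 0.00113, limma). The intronic region of the corepressor subunit Tbl1xr1, 50388 bp from the start, changed by -1.40 (adjusted p = 0.00763), and at 18 h the region 9062 bp upstream of the coactivator gene Ep300 by -1.13 (SE 0.21, adjusted p = 0.0139). These were the largest changes in the list and were chosen for that.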

How the data were processed

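The authors aligned reads to mm10 with BWA (0.7.12 per the submitters' processing notes), removed duplicates, reduced libraries to equal tags and called peaks in each library with MACS 2.1.0 without a control. They deposited, for each peak, the signal (tag coverage) at its summit and the mean signal over it, with assigned genes, distances and CpG islands. Other files were not used. No counts were used, so the authors' count test was not repeated.

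Peaks overlapping by 1 bp were merged into regions. A timepoint counted when both libraries had a peak. The height was the highest summit of a library, compared as log2 with limma 3.58.1 (R 4.3.3, 4 groups, no block, no further scaling). Merging and fit were tested on simulated data. Python 3.11.15, pandas 2.3.3 and scipy 1.17.1 were used. Sequence and features came from GRCm38 and GENCODE.

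The members and lists were chosen with earlier results of these data known. Named were members counted at 0 h only or with no peak, the 5 with the largest difference in peak number, those with a region at 120 h only, the 3 largest rises and falls at 18 h and 120 h and up to 10 regions past the threshold (relative to the median region), and the highest region of Nr6a1, Nr2c1, Nr2c2, Nr5a1 and Nr2f2. Alternatives were a peak in either replicate, summits of at least 50, equal peak numbers, 50% overlap, peaks inside or within 1000 bp of the gene, other scalings, mean signal, a replicate block, an intensity trend, only the timepoints compared and each library left out.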

Additional observations from a re-analysis of the deposited data

How the results depend on the processing

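Heights have no counting error that could be given. With a peak in either replicate, 1 member was counted at 0 h only, 77 regions at all 4 timepoints and 18 at 120 h only. With summits of at least 50 these were 5, 29 and 4. With equal peak numbers, 0 members were counted at 0 h only, 1 had more peaks at 0 h and 7 regions were at 0 h only. Member regions lower and higher were 0 and 1 at 18 h against 0 h when centred, quantile normalized or centred by class. At 120 h against 48 h they were 3 and 7 centred, 1 and 1 quantile normalized, 3 and 5 by class, 1 lower by mean signal and 8 higher with only the 2 timepoints. At 120 h against 0 h they were 10 and 12 centred, 5 and 6 quantile normalized, and 9 and 8 by class. In regions with summits of at least 50 throughout, 25 were lower at 18 h, and 6 lower and 2 higher at 120 h against 0 h. Leaving out 1 library, the ranges were 1 to 2 members at 0 h only and 5 to 24 regions at 120 h only (24 without 120 h replicate 2), 25 to 41 lower at 18 h, 0 to 1 lower and 0 to 22 higher at 120 h against 48 h, and 11 to 26 lower and 1 to 2 higher at 120 h against 0 h. Relative to the median region, these ranges, added after seeing the data, were 0 to 1 higher at 18 h, and 4 to 9 lower and 5 to 11 higher at 120 h. The causes were not tested.

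Same-numbered replicates did not deviate together throughout (r from -0.224 to 0.248 across 15536 regions), so the numbers were not taken as pairs. With the replicate block, 39 regions were lower at 18 h, 12 higher at 120 h against 48 h, and 16 lower and 1 higher at 120 h against 0 h. Centred, the block gave 0 lower and 1 higher at 18 h, 3 and 8 at 120 h against 48 h, and 10 and 13 at 120 h against 0 h.

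Changes as deposited that turned sign were, at 120 h, Nr2c1 (0.11 centred, with or without the block, 0.15 quantile normalized), Nr2c2 (0.43 centred, with or without the block, 0.16 by class) and Nr6a1 (0.71 centred, with or without the block, 0.39 quantile normalized, 0.44 by class). At 18 h they were the Nr3c2 start (0.67 centred, with or without the block, and by class, 0.74 quantile normalized) and Nr4a2 (0.64 likewise, 0.46 quantile normalized). By mean signal the Nr2f2 region was -0.09 and the upstream Nr3c1 region -0.08. With 1 library left out, the ranges were -0.09 to 0.17 for Nr2f2, -0.50 to 0.14 for Nr6a1 and -0.22 to 0.29 for Rora at 690294 bp, and relative to the median region -0.13 to 0.35 for Nr2c1. The other single-region values kept their direction. Over all alternatives, 274 of them also kept their side of the threshold at 120 h against 0 h, while 20 newly passed it and 6 no longer did. At 18 h these were 120, 5 and 13.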
